A study of Mus musculus with 6 samples.

Results

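Growth factor receptor tyrosine kinases that signal together with Src in liver were followed in 6 mouse livers. The set had 8 receptor genes, Egfr, Erbb2, Erbb3, Met, Insr, Igf1r, Fgfr4 and Pdgfrb, and its members were the array probes that carry a RefSeq transcript of one of them. Of the 8 genes 7 matched, each with 1 probe, among 13968 named genes, and no probe was matched to Erbb3, which was not analysed here. All livers came from C57BL/6 mice aged 14 months. The 3 wild-type arrays are replicates 1, 2 and 4. The 3 Src-transgenic arrays are replicates 1, 3 and 4, from mice with a human c-Src transgene driven by the mouse metallothionein promoter, which zinc can induce and which is not restricted to hepatocytes. Per the labels zinc was typically not needed. They do not say whether these mice were given it or whether the sampled tissue held tumour. The arrays of wild-type sample 3 and transgenic sample 2 were left out by the study for low signal. Values are log2 signals after quantile normalization unless stated otherwise, a probe is above background when its signal passes a threshold set on that array from control spots, and differences are transgenic minus wild-type.

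Receptor tyrosine kinases span the cell membrane. Binding of a growth factor outside brings receptor chains together, and their kinase domains then phosphorylate tyrosines that recruit adaptors to the Ras-MAPK and PI3K-Akt pathways. Src is a cytoplasmic kinase that binds several activated receptors and can itself phosphorylate Egfr. In liver, Egfr and Met carry the main signals for hepatocyte growth after injury, Insr controls glucose and lipid metabolism, Fgfr4 restrains bile acid synthesis, and Pdgfrb marks stellate cells rather than hepatocytes.

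Across the arrays every transgenic array was brighter before normalization, with median probe signals of 94.8 to 117 against 53.8 to 93.4, and 62.6% to 71.7% of probes were above background. The mouse Src probe had a log2 difference of 1.79 ± 0.51 (SE, n = 3 per group), with every transgenic array above every wild-type array. Its adjusted p was 0.69 (limma, Benjamini-Hochberg over 34175 features). Mt1 and Mt2, the metallothionein genes whose promoter family drives the transgene, had differences of 3.71 ± 0.53 and 4.88 ± 0.44 (limma adjusted p = 0.69 and 0.35). Whether the mouse Src probe reads the human transcript is not known. On transgenic replicate 4, the Y-linked genes Uty, Eif2s3y and Ddx3y did not pass the background threshold, while they did on the other 5 arrays. Kdm5d, the fourth one measured, passed it on all 6. The labels give the sex of no mouse. Several results are therefore also given without transgenic replicate 4. Markers of hepatocytes were above background on all arrays for 8 of 8 tested genes.

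None of the 7 receptors passed the test. Met read higher in all 3 transgenic livers, by 1.42-fold on average, while Erbb2 and Insr read lower in all 3, by 1.52-fold and 1.36-fold. Egfr read 1.45-fold lower on average with overlapping groups, Fgfr4 and Pdgfrb had almost equal means, and Igf1r was not above background on any array. limma called 0 of the 7 at an adjusted p under 0.05, where 0% of all features were called in either direction. At an unadjusted p under 0.05 it was again 0 of 7, beside 7.09% of all features (4.37% higher and 2.72% lower in transgenic livers). Transgenic and wild-type values were fully separate for 3 of the 7, beside 16.0% of all features. Met was the 1 separate upward, beside 10.1% of features, and Erbb2 and Insr the 2 separate downward, beside 5.90%. With 7 genes these counts carry no statement on the set. The median log2 difference of the 7 was -0.07, and that of all named genes -0.02.

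**Figure D1:**
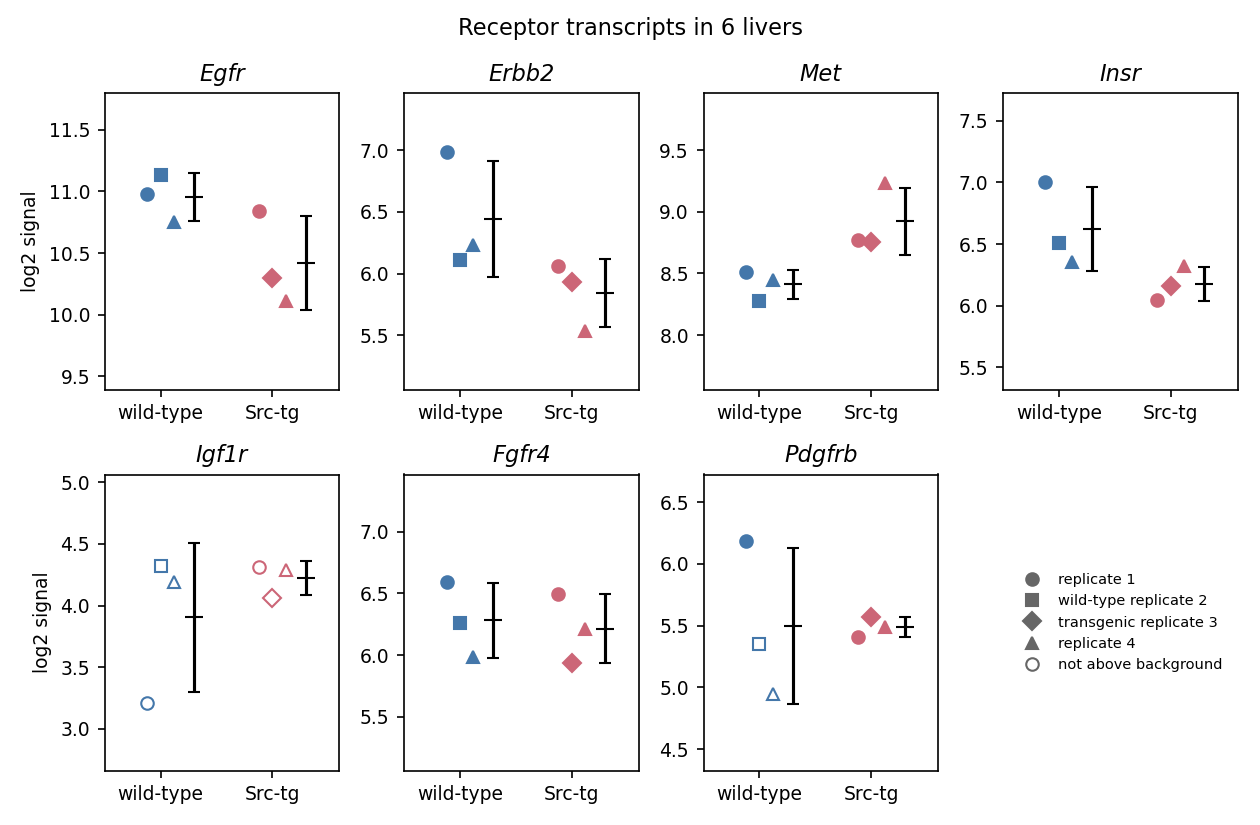
Log2 signal (vertical axis, each panel on its own range) of the 7 receptor probes on 3 wild-type and 3 Src-transgenic (Src-tg) arrays, 1 point per liver, with the marker shape giving the replicate and open markers where the probe was not above background; the bar beside the points is the mean ± SD (n = 3). Met is the panel in which all transgenic points lie above all wild-type points, Erbb2 and Insr those in which they all lie below, and in Igf1r every point is open.

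The 3 receptors with the smallest p were Met, Egfr and Erbb2, in that order. Sequences before a transcript start are shown for them since the array reads transcript levels. Each run is the 250 bases before the start that RefSeq's promoter table takes for the gene (GRCm38.p6, plus strand, 5′ to 3′), at chr6:17463707-17463956 for Met, chr11:16751953-16752202 for Egfr and chr11:98412234-98412483 for Erbb2. For Egfr and Erbb2 the run ends just before the first base of the annotated gene, while for Met it begins 358 bases past it, so the annotation also holds an earlier Met start. Capitals mark matches on either strand to GGGCGG (the GC box) or TGACTCA (an AP-1 element, the motif of Jun and Fos dimers).
Met: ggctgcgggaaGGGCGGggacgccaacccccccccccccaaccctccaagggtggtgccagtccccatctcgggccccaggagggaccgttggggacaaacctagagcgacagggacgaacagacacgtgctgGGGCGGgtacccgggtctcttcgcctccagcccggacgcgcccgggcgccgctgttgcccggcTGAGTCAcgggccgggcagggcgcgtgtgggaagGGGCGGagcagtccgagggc
Egfr: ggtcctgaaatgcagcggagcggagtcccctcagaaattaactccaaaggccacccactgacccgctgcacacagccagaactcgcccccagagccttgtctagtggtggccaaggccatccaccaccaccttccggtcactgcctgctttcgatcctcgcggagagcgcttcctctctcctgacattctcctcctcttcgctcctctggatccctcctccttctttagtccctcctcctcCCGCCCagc
Erbb2: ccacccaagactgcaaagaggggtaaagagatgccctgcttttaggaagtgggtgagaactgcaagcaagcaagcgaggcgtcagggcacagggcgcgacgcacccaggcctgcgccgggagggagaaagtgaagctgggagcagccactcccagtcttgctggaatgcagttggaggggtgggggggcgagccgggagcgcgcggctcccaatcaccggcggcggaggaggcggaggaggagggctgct

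The Met region held 3 GC boxes and 1 AP-1 element, the latter 54 to 48 bases before the start, on a G+C content of 74%. Egfr held 1 GC box, 9 to 4 bases before the start, and 60.8% G+C. Erbb2 held neither motif and had 66% G+C. A GC box was found in 32.7% and TGACTCA in 4.46% of the 32851 promoter regions of this length, and their median G+C content was 52.4%. TATAAA, the TATA box, was in none of these 3 regions and in 12.4% of all. Igf1r and Fgfr4 had promoters in the same RefSeq table, with 2 GC boxes each and neither TATAAA nor TGACTCA. These matches describe letters only. No binding was measured.

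Met encodes the receptor for hepatocyte growth factor. Its probe read 8.51, 8.28 and 8.44 on wild-type replicates 1, 2 and 4 and 8.77, 8.76 and 9.24 on transgenic replicates 1, 3 and 4. Every transgenic liver lay above every wild-type liver, with a gap of 0.25 between the closest pair, and the probe was 5.99 to 15.2 times the background threshold of its array. The group means were 8.41 ± 0.12 and 8.92 ± 0.27 (SD, n = 3 each), and they differed by 0.51 ± 0.22 (SE) on the log2 scale. The 95% interval of the difference ran from -0.02 to 1.04, or 0.99-fold to 2.05-fold. The limma adjusted p was 0.69, and an exact two-sided permutation test gave p = 0.1, the smallest that 3 against 3 allow.

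Transgenic replicate 4, the array on which 3 Y-linked genes were not above background, held the highest Met value. Without it the difference was 0.35. The other 2 transgenic arrays still lay above all 3 wild-type arrays. On the deposited signals without any scaling, Met read 238, 265 and 368 in wild-type and 469, 522 and 771 in transgenic livers. The order of the groups was thus the same before normalization. Every transgenic array was brighter, however, and 86.8% of named genes had positive differences without scaling. Fgfr4, Pdgfrb and Igf1r, the last below background, also separated upward there, while the groups of Erbb2 and Insr overlapped. The unscaled Met difference was 1.01 on the log2 scale, against a median of 0.48 for all features without scaling.

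Egfr encodes the receptor for epidermal growth factor and its relatives, and in mouse liver it is known to be more abundant in males than in females. It read 10.98, 11.14 and 10.75 on wild-type replicates 1, 2 and 4 and 10.84, 10.30 and 10.11 on transgenic replicates 1, 3 and 4. Transgenic replicate 1 lay within the wild-type range and the other 2 lay below it. After local correction, which gave a difference of -0.61, all 3 lay below it. The signal was far above background, at 26.9 to 50.4 times the threshold. The means were 10.96 ± 0.19 and 10.42 ± 0.38 (SD, n = 3 each), with a difference of -0.54 ± 0.26 (SE, limma adjusted p = 0.69), with a 95% interval of -1.17 to 0.09. The exact two-sided permutation test gave p = 0.2. Replicate 4 held the lowest Egfr value, and without it the difference was -0.38.

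Erbb2 encodes a partner receptor that binds no ligand alone and signals through pairing with Egfr or Erbb3. It read 6.98, 6.11 and 6.23 on wild-type replicates 1, 2 and 4 and 6.06, 5.93 and 5.54 on transgenic replicates 1, 3 and 4. All transgenic values were below all wild-type values, by 0.05 for the closest pair, and wild-type replicate 1 stood apart at the top. The probe was dim, at 1.16 to 2.30 times the threshold. The means were 6.44 ± 0.47 and 5.84 ± 0.27 (SD, n = 3 each), with a difference of -0.60 ± 0.30 (SE, limma adjusted p = 0.69). The 95% interval was -1.34 to 0.14, and the exact two-sided permutation p was 0.1. Without wild-type replicate 1 the difference was -0.33, without transgenic replicate 4 it was -0.45, and without scaling between arrays it was -0.06.

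Insr encodes the insulin receptor. It read 7.004, 6.51 and 6.35 on wild-type replicates 1, 2 and 4 and 6.04, 6.16 and 6.32 on transgenic replicates 1, 3 and 4. All transgenic values were below all wild-type values, but a gap of 0.032 separated transgenic replicate 4 from wild-type replicate 4. The means were 6.62 ± 0.34 and 6.18 ± 0.14 (SD, n = 3 each), with a difference of -0.45 ± 0.24 (SE, limma adjusted p = 0.70), with a 95% interval of -1.03 to 0.13. The exact two-sided permutation p was 0.1. The probe was 1.79 to 2.33 times the threshold, and without wild-type replicate 1 the difference was -0.26. After correction for the local brightness of the array, which gave -0.57, the groups overlapped, and without scaling the difference was 0.12, with its direction turned.

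Igf1r, the receptor for insulin-like growth factors, is known to be scarce in adult hepatocytes. Its probe was not above background on any of the 6 arrays, at 0.25 to 0.54 times the threshold. No fold is given. The log2 readings were 3.21 to 4.32 in wild-type and 4.06 to 4.31 in transgenic livers, ranges that overlap. A reading below background says that the transcript was not detectable with this probe, not that it is absent.

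Fgfr4, the main fibroblast growth factor receptor of hepatocytes, read 6.59, 6.26 and 5.99 on wild-type replicates 1, 2 and 4 and 6.50, 5.93 and 6.21 on transgenic replicates 1, 3 and 4. The groups overlapped over most of their range. The log2 difference was -0.066 ± 0.26 (SE, limma adjusted p = 0.95), and its 95% interval of -0.69 to 0.55 reaches 1.47-fold higher. Its direction turned without wild-type replicate 1 (0.090), without transgenic replicate 3 (0.074) and without scaling (0.49).

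Pdgfrb, the receptor for platelet-derived growth factor B on stellate and other mesenchymal cells, was above background on wild-type replicate 1 and on all 3 transgenic arrays, at 0.76 to 1.37 times the threshold. It read 6.19, 5.35 and 4.95 on wild-type replicates 1, 2 and 4 and 5.41, 5.57 and 5.49 on transgenic replicates 1, 3 and 4. The transgenic values lay inside the wild-type range. The log2 difference was -0.0056 ± 0.34 (SE, limma adjusted p = 1.00), with a 95% interval of -0.83 to 0.82, and without wild-type replicate 1 it was 0.34. In bulk tissue fewer cells of a type and less RNA per cell cannot be told apart. Of 15 stellate and mesenchymal markers tested 10 were above background on all 6 arrays, Col1a2 and Hand2 were above it on none, and the summed level of the list was 4651 to 5462 in wild-type and 4091 to 5480.5 in transgenic livers on a linear scale. The part of cell makeup in the Pdgfrb value was not tested.

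**Figure D2:**
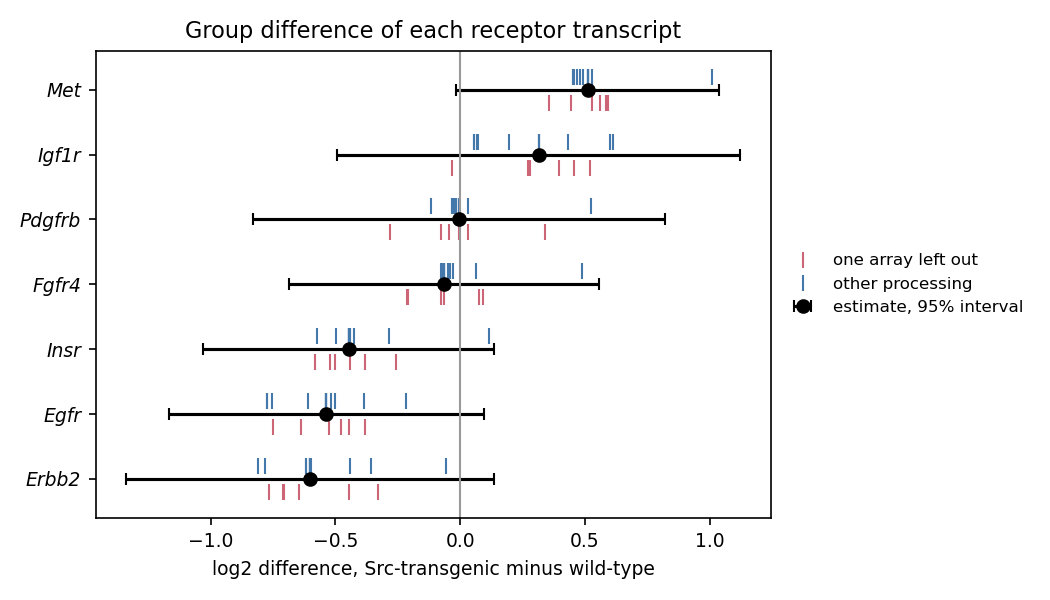
Log2 difference (horizontal axis, Src-transgenic minus wild-type) for each receptor, with limma's estimate and 95% interval in black, the estimates with 1 array left out in red below it, and those under other processing in blue above it. All 7 intervals include 0, the marks of Igf1r come from readings below background, and Met, Egfr and Erbb2 have all their marks on 1 side of 0.

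Summed levels of the other marker lists overlapped between the groups as well. Endothelial markers summed to 4099 to 4760 in wild-type and 3630 to 4213 in transgenic livers. Differences were negative for 7 of 8 endothelial genes, beside 52.3% of named genes. Cholangiocyte and progenitor markers summed to 992 to 1335 and 996 to 1422. Hepatocyte markers summed to 188433 to 209161 and 182671 to 207818. Macrophage and Kupffer cell markers summed to 4096 to 5091 and 3960 to 7422, lymphocyte markers to 1475 to 1689 and 1493 to 2289, and neutrophil markers to 404 to 810 and 543 to 908. The highest macrophage sum was on transgenic replicate 4 and the highest lymphocyte sum on transgenic replicate 3. Of 9 lymphocyte markers tested, 4 differences were positive and 5 negative. At an unadjusted limma p under 0.05, 2 of the 9 were lower and 0 higher, beside 2.72% and 4.37% of all features. The list genes with the highest mean were Cyp2e1, Dcn, Stab2, Spp1, Cd5l, Cd79a and Ngp. Camp was the neutrophil marker above background on no array.

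Ligands were read next, from a list of 24 genes of which 21 had a probe. limma called 0 of 21 (smallest adjusted p = 0.69), 3 had an unadjusted p under 0.05, all higher in transgenic livers, beside 4.37% of all features higher at that level. They were Nrg4, Fgf15 and Ereg. Nrg4 was named for its small p in this list. Ereg, above background on no array, was named after its values were seen. Transgenic and wild-type values were fully separate upward for 3 of 21 and downward for 0, beside 10.1% and 5.90% of all features. The median log2 difference was 0.02, or -0.05 without wild-type replicate 1. Hgf, the ligand of Met, read 6.16, 5.84 and 6.00 in wild-type and 5.99, 5.77 and 6.29 in transgenic livers, so the ligand values overlapped where the Met values did not. Its difference was 0.02 ± 0.22 (SE). A second Hgf probe, above background on 2 arrays, gave -2.29 ± 1.36 (SE), a value that rests on wild-type replicate 2, which read 9.31 against 3.13 to 5.87 on the other 5 arrays. Without it the second probe gave -0.82.

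Among ligands of the ErbB receptors, Egf, which is made mainly outside the liver, was above background on no array. Nrg4, a neuregulin whose receptors are Erbb4 and its partners, read 9.29, 8.84 and 8.61 on wild-type replicates 1, 2 and 4 and 9.69, 9.68 and 9.81 on transgenic replicates 1, 3 and 4. All transgenic livers were above all wild-type livers, with a log2 difference of 0.82 ± 0.24 (SE, limma adjusted p = 0.69), and 0.77 without transgenic replicate 4. Hbegf, an Egfr ligand shed from the cell surface, was above background on no wild-type array and on all 3 transgenic ones. Its log2 difference was 0.84 ± 0.38 (SE, limma adjusted p = 0.69), with an interval of -0.09 to 1.77. The exact permutation test gave p = 0.2. The transgenic mean was 1.39-fold above the mean of the lowest detectable signals of the wild-type arrays. This ratio compares means without their spread, so it does not establish a rise. The ratio rests on transgenic replicate 1, which read 6.72, and without that array it is 1.10-fold. The groups overlapped for Hbegf, since transgenic replicate 4 read 5.44 and wild-type replicate 1 read 5.52. Only the former was above background, as the threshold is set on each array. Btc, another Egfr ligand, had -0.71 ± 0.47, and -0.20 without wild-type replicate 1.

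Igf1, which hepatocytes secrete into the blood, read 12.19 to 12.80 over the 6 livers with a difference of -0.11 ± 0.23 (SE). With median scaling that was -0.46. Fgf15, the ligand of Fgfr4 made mainly in the ileum, read 6.05 to 6.11 in wild-type and 6.46 to 6.56 in transgenic livers. The groups were narrow and did not overlap, with a difference of 0.42 ± 0.17 (SE, limma adjusted p = 0.69), and 0.25 after local correction. Klb, the co-receptor that Fgfr4 needs for Fgf15, read 8.35 to 8.73 over the 6 livers with a difference of -0.03 ± 0.20, and 0.14 after local correction of a patch on 1 array. Pdgfb, the ligand of Pdgfrb, had -0.05 ± 0.38, with wild-type readings of 7.46 to 8.85 that enclose the transgenic ones. The differences of Hgf, Igf1, Klb and Pdgfb each turned direction when some single array was left out, with ranges of -0.12 to 0.14, -0.23 to 0.069, -0.098 to 0.092 and -0.41 to 0.29.

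**Figure D3:**
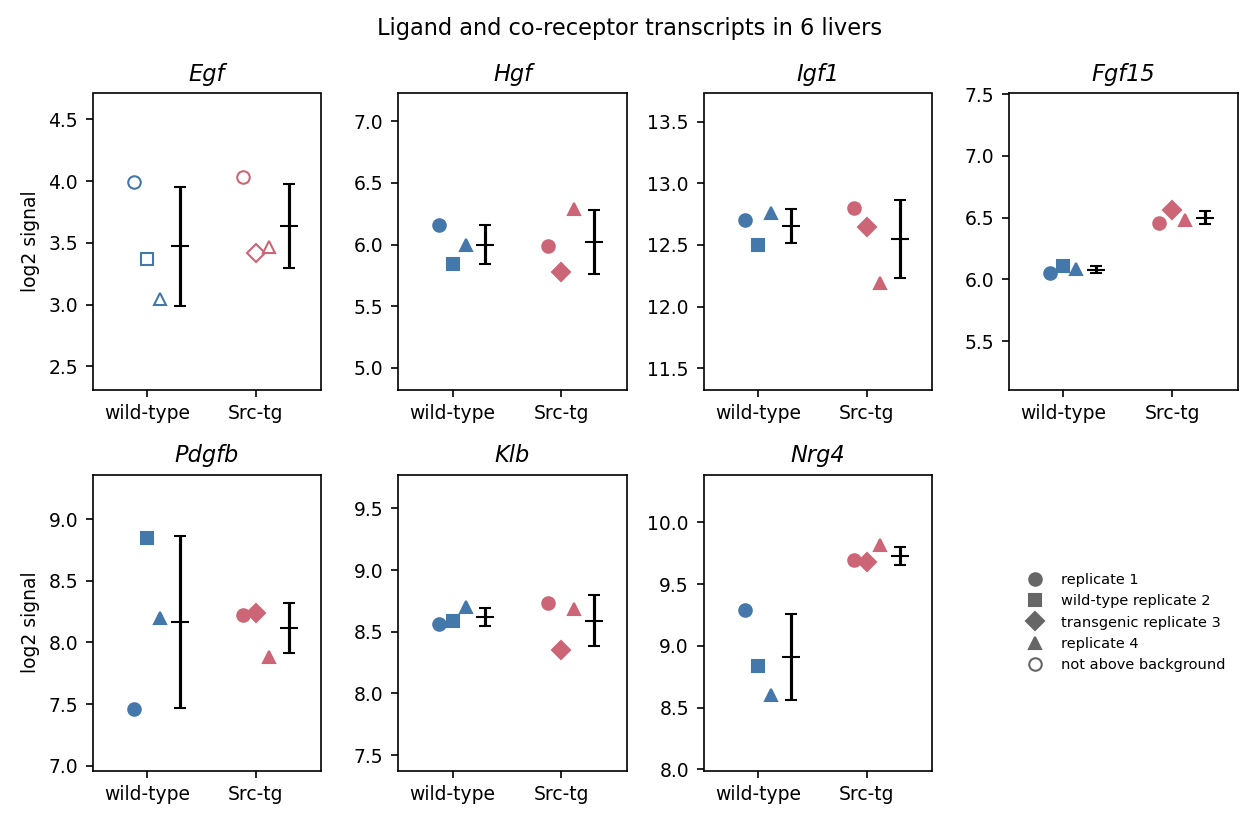
Log2 signal (vertical axis) of 6 cognate ligand and co-receptor genes and of Nrg4 on 3 wild-type and 3 Src-transgenic (Src-tg) arrays, with points, open symbols and mean ± SD bars as for the receptors. Fgf15 and Nrg4 are the panels without overlap between the groups, and Egf is open throughout. Nrg4 was picked for its small p, and 10.1% of all features were separate upward.

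Co-receptors, carriers and activators of ligands had 18 tested genes of 20, of which limma called 0 (smallest adjusted p = 0.69; 0 at an unadjusted p under 0.05) and 11 had negative differences. Igfbp1, a liver-secreted carrier of insulin-like growth factors that insulin represses, had 1.65 ± 0.97 (SE). It read 12.39 on transgenic replicate 1 against 7.80 to 9.49 on the other 5 arrays, and the difference was 0.57 without that array. The probe lay in a patch on 1 array, and local correction gave 2.65. Igfbp5 had 0.42 ± 0.24, with 0.28 without wild-type replicate 1, and its other probe, above background on no array, gave -0.01. Adam10, a sheddase of several receptors and ligands, had -0.66 ± 0.43, and -0.21 without wild-type replicate 2. Rhbdf2, which brings the sheddase Adam17 to the cell surface, had -0.74 ± 0.46 from a probe in a bright or dim patch on 3 arrays, and -0.26 without transgenic replicate 4. After local correction it had 0.41, and its other probe gave -0.05.

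The other receptor tyrosine kinases formed a list of 44, of which 39 had a probe. limma called 0 of 39 (smallest adjusted p = 0.69), 2 had an unadjusted p under 0.05, both higher, beside 4.37% of all features, and the median difference was -0.07, or 0.04 without wild-type replicate 1. In 4 of 39 genes all transgenic values were higher and in 2 all were lower, beside 10.1% and 5.90% of all features. Ror2, a Wnt5a receptor, had 0.97 ± 0.26 (SE) and was above background on 2 of 3 wild-type arrays and on all transgenic ones. Flt3, a receptor of blood progenitor and dendritic cells, had 0.75 ± 0.23. Insrr, a relative of Insr that senses alkaline pH, had 0.73 ± 0.31, and 0.49 without transgenic replicate 4. Epha5, an ephrin receptor, had 0.59 ± 0.28 with overlapping groups.

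Adaptors and downstream kinases had 21 tested genes of 33. limma called 0 (smallest adjusted p = 0.69), 1 had an unadjusted p under 0.05, beside 7.09% of all features, and 14 of 21 differences were negative, beside 52.3% of named genes. The median was -0.12, or -0.03 without wild-type replicate 1. Gab2, a docking adaptor of many receptors, was the one with the unadjusted p under 0.05. It read 6.76, 6.66 and 7.60 in wild-type and 7.79, 7.64 and 8.48 in transgenic livers. All transgenic values were above all wild-type values, with a difference of 0.96 ± 0.36 (SE, limma adjusted p = 0.69), and 0.71 without transgenic replicate 4. Araf, a kinase that activates MEK, had -0.38 ± 0.22, and Sos1, the exchange factor that loads Ras, had -0.49 ± 0.32, or -0.25 without transgenic replicate 4. Akt1 had 0.23 ± 0.21, and 0.09 without that array.

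Attenuators of receptor signalling had 29 tested genes of 33, with 0 called by limma (smallest adjusted p = 0.69; 0 at an unadjusted p under 0.05), 16 positive and 13 negative differences and a median of 0.03, or -0.08 without wild-type replicate 4. Lrig3, a relative of the Egfr inhibitor Lrig1, read 8.01, 7.72 and 7.83 in wild-type and 6.16, 7.11 and 7.57 in transgenic livers. All transgenic livers were below all wild-type livers, with a difference of -0.91 ± 0.38 (SE), and -0.51 without transgenic replicate 1. Grb14, which binds and inhibits the insulin receptor, had -0.82 ± 0.42, and -0.52 without wild-type replicate 1. Ptprf, a receptor phosphatase that acts on the insulin receptor, had -1.01 ± 0.48 and lay in a patch on 1 array, with -0.56 after local correction and -0.63 without wild-type replicate 2. Nf1, which switches Ras off, had 0.63 ± 0.28, and 0.45 without transgenic replicate 4.

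Growth factor response genes, early transcripts that MAPK signalling induces, had positive differences for 14 of 16 tested genes of 17, against 47.7% of named genes. Their median was 0.51, beside -0.02 for all named genes, and limma called 0 (smallest adjusted p = 0.69; 2 at an unadjusted p under 0.05, beside 7.09% of all features). Of the 16 genes, 12 were above background on at least 3 arrays. The negative differences were those of Dusp6 (-0.29) and Etv4 (-0.25), the latter above background on no array. Junb had 1.14 ± 0.33, Myc 1.31 ± 0.53, Jun 0.75 ± 0.44 and Fos 0.77 ± 0.46 (SE). Fos was above background on 1 wild-type and 3 transgenic arrays. Transgenic replicate 1 read highest of the 6 livers for Junb, Myc, Jun and Fos. Without it the median of the list was 0.17, and Junb had 0.87, Myc 0.76, Jun 0.29 and Fos 0.33. Over the 6 livers, Met had its own highest reading, and Egfr and Erbb2 their own lowest, on transgenic replicate 4.

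Hepatic genes that answer to insulin or to Fgf15 through Fgfr4 had 7 tested of 9, with 5 negative differences, a median of -0.23 and 0 calls by limma (smallest adjusted p = 0.69; 0 at an unadjusted p under 0.05). Srebf1, the insulin-induced activator of fatty acid synthesis, had -0.71 ± 0.37 (SE), and -0.44 without transgenic replicate 4. Cyp8b1, a bile acid 12α-hydroxylase, had -0.75 ± 0.44 and read 9.31 on transgenic replicate 4 against 10.59 to 11.17 elsewhere, with -0.26 without that array. Pck1, the gluconeogenic enzyme that insulin represses, had 0.11 ± 0.22, and -0.29 with median scaling. Without transgenic replicate 4 the median of the list was 0.14. Cyp7a1 had no matched probe and was not analysed here.

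**Figure D4:**
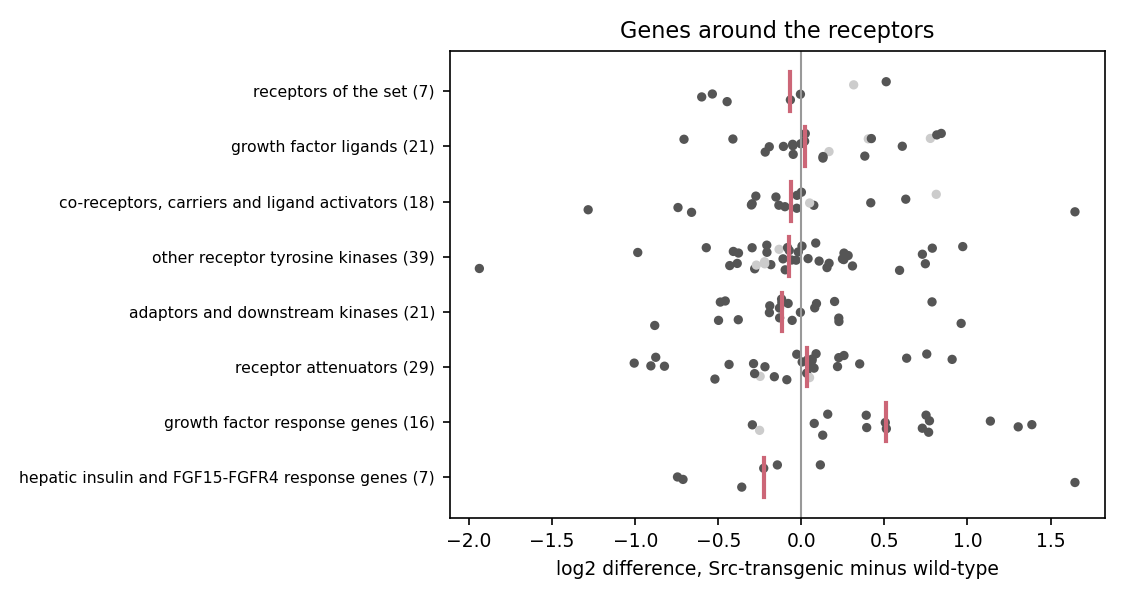
Log2 difference (horizontal axis, Src-transgenic minus wild-type) of every tested gene in the 7 receptors and in 7 lists around them, 1 point per gene, light where the probe was above background on no array and dark otherwise, with a red bar at each list's median and the number of genes in brackets. The bar of the growth factor response genes stands at 0.51 and the others lie between -0.23 and 0.03.

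The genes most like each receptor over the 6 arrays were found by Pearson's r of log2 values. They were Lmnb2 (0.99) and Pafah2 (0.99) for Egfr, and Camta2 (0.995) and Rnf114 (0.99) for Erbb2. For Met they were Adam18 (0.99) and Ate1 (0.99), for Insr Exosc4 (0.996) and Epha1 (0.99), and for Fgfr4 Rars (0.98) and Gusb (0.98). They were picked as the highest of 9612 genes above background on all arrays. Between 150 and 367 of those 9612 genes had r over 0.9 with a given receptor. Such likeness over 6 arrays was therefore not particular to the genes named. The points share their arrays, and with them the brightness of each array.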

How the data were processed

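Liver RNA of 6 mice was, per the labels' protocols, made into biotin-labelled cRNA and read on 1-colour arrays after streptavidin staining. The deposited intensity of a spot is linear and already background-corrected, per the file headers. The scanner is not stated in these sources. The authors' value table holds the same intensity divided by 1 constant per array (equal within 1e-06, column medians near 1), so scale and direction are known.

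Of 35587 spots per array 620 were control spots and were left out. Signals under the 1st percentile of positive values were raised to it, and log2 values were quantile normalized. The background threshold of an array, 33.0 to 50.6, lay 3 scaled median absolute deviations above the median of 570 control spots. Accessions without versions were matched to RefSeq (GRCm38.p6), naming 14760 probes. The probe with the highest mean stood for a gene. The test was limma 3.58.1 (R 4.3.3, two-sided, Benjamini-Hochberg over 34175 features), tested on simulated data. A patch is where the median deviation of spots within 4 rows and columns exceeded 0.5, and local correction subtracts that median. The labels number the mice separately, and the number of arrays limits precision.

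Members, lists and tests were chosen with earlier results of these data known. Named genes were the members, Src, Mt1, Mt2, cognate ligands, Klb and up to 4 genes per list with the smallest p among those above background on at least 3 arrays. The promoter motifs, the choice of promoters and the comparison without scaling were added after the data were seen.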

Additional observations from a re-analysis of the deposited data

How the results depend on the processing

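Under 19 alternatives Met kept its direction at 0.35 to 1.01, Egfr at -0.77 to -0.22 and Erbb2 at -0.81 to -0.06. Background filters, trended or robust spread and the mean of a gene's probes cannot move the difference of a gene with 1 probe. The authors' value table nearly repeats median scaling. None of the 7 receptors passed the test under any alternative run for it. Their adjusted p ranged from 0.20 to 0.85 for Met, 0.53 to 0.85 for Egfr and 0.57 to 0.87 for Erbb2. Leaving out 1 array gave 0.35 to 0.59 for Met, -0.75 to -0.38 for Egfr, -0.76 to -0.33 for Erbb2, -0.58 to -0.26 for Insr, -0.21 to 0.090 for Fgfr4 and -0.28 to 0.34 for Pdgfrb, and 0 to 1 features called. The readings of Igf1r lay below background on all arrays, and their difference, -0.031 to 0.52 with 1 array left out, is no measure of a change. Without scaling between arrays, chosen after seeing the data, Insr turned to 0.12, Fgfr4 to 0.49 and Pdgfrb to 0.52, and the median of all features was 0.48 in place of 0.02. Array weights turned Pdgfrb to 0.031. With every probe tested separately 0 members were called, which nearly repeats the main test since each member has 1 probe.

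The groups share replicate numbers 1 and 4, which the labels do not tie to a litter or day. Deviations of same-numbered arrays correlated at 0.06 for each pair, against -0.07 to 0.02 for other pairs. With the replicate block, only the arrays numbered 1 and 4 enter the group difference, since the other numbers occur in 1 group each. Met then had 0.53, Egfr -0.39, Erbb2 -0.81, Insr -0.50 and Fgfr4 0.065, the last with its direction turned. The block changed no call. The block, which leaves fewer arrays for the difference, brought the features at an unadjusted p under 0.05 from 2424 to 1348. No scaling brought them to 7865. Median scaling turned their split from 1493 higher and 931 lower to 943 and 1312, and moved the median of named genes from -0.02 to -0.12. Signals near the background threshold limit Erbb2, Insr, Fgfr4 and Pdgfrb, and Igf1r has no usable signal. The cause of these differences was not tested.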
